A study of Mus musculus with 12 samples.

Results

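The genes of the synaptic vesicle cycle were followed in RNA sequencing libraries from the medial prefrontal cortex (mPFC), which in mice is part of the circuits for the emotional weight of pain, after a nerve injury and without it. They were the genes that carry the KEGG pathway term for the synaptic vesicle cycle in the deposited annotation, without those whose names begin with Slc or Cacna (transporters and calcium channels). The term was held by 76 of 34745 genes in the table; 24 had such names and were left out, and 52 remained. Of these, 46 had counts high enough to be tested. The other 6 are described by their counts.

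All mice were wild-type males. The study had 4 libraries of the right mPFC, contralateral to the injury, and 4 of the left mPFC, ipsilateral to it, taken at day 28 after ligation of the left sciatic nerve by chronic constriction (CCI), a model of neuropathic pain in which ligatures are tied loosely around the nerve. It also had 4 libraries of naive mice at day 28 of habituation, whose hemisphere the labels do not give. Left and right libraries of CCI mice whose codes carry the same number were read as the hemispheres of the same mouse, which the labels do not say outright. The labels give no animal ages and name no sham operation.

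Release begins when a syntaxin and Snap25 on the plasma membrane and Vamp2 on the vesicle wind into a SNARE complex, guided by Munc13, Rim and Rab3 proteins, held by complexins and triggered by calcium binding to synaptotagmin. Nsf with its adaptor alpha-SNAP then pulls the spent complexes apart, while the adaptor AP-2, clathrin and dynamin retrieve membrane from the surface. Refilling needs the vacuolar proton pump (V-ATPase), whose V1 sector splits ATP and whose V0 sector carries protons into the vesicle. In cortex most of these genes are expressed in all neurons, and the clathrin, AP-2 and V-ATPase genes in most other cells too.

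Total counts lay between 16.1 and 20.6 M per library. The 52 genes took 2.10 ± 0.158% of all counts in contralateral, 2.28 ± 0.0395% in ipsilateral and 2.19 ± 0.0426% in naive libraries (SD, n = 4 each). The share ran from 1.95 to 2.33% in contralateral libraries, from 2.24 to 2.33% in ipsilateral libraries and from 2.14 to 2.24% in naive libraries. Markers of cortical neurons were present throughout: the summed level of 10 excitatory neuron markers was 5270 to 6672 CPM (counts scaled to the library total) in contralateral, 5849 to 6449 CPM in ipsilateral and 6021 to 6251 CPM in naive libraries, and no marker was at 0 in every library. In such bulk tissue, fewer cells of a type and less RNA per cell cannot be told apart. The labels do not say that each number stands for a separate animal, so p-values measure only the spread between these libraries, which may be technical.

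Levels per length were highest for some genes of the release machinery. By mean FPKM (fragments scaled by gene length and library total) over the 12 libraries, 13 of the 52 genes reached 100, 36 reached 10 and 45 reached 1, while 7 stayed under 1. Snap25 (ENSMUSG00000027273, chromosome 2, 136713453 to 136782428, GRCm38/mm10), the plasma membrane SNARE that gives the complex a pair of its helices, stood at the top with 398 FPKM. The complexins Cplx2 (303 FPKM) and Cplx1 (245 FPKM) came next, then the vesicle SNARE Vamp2 (234 FPKM). Other genes of these roles were low, such as Stx2 (3.47 FPKM) and Unc13c (2.14 FPKM). Within the other roles, levels ran from Cltb (27.3 FPKM) to Cltc (61.6 FPKM) for clathrin, from Ap2m1 (21.2 FPKM) to Ap2a1 (96.3 FPKM) for AP-2, and up to Atp6v0e2 (144 FPKM) for V0 and Atp6v1d (162 FPKM) for V1. The recycling genes Napa and Nsf had 50.4 and 95.4 FPKM. The order of neighbours was not fixed in all groups: Cplx1 averaged 216 ± 45.9 FPKM and Vamp2 232 ± 4.17 FPKM in contralateral libraries, against 277 ± 42.1 and 237 ± 11.8 FPKM in ipsilateral and 242 ± 1.92 and 234 ± 10.3 FPKM in naive libraries (SD, n = 4 each).

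**Figure D1:**
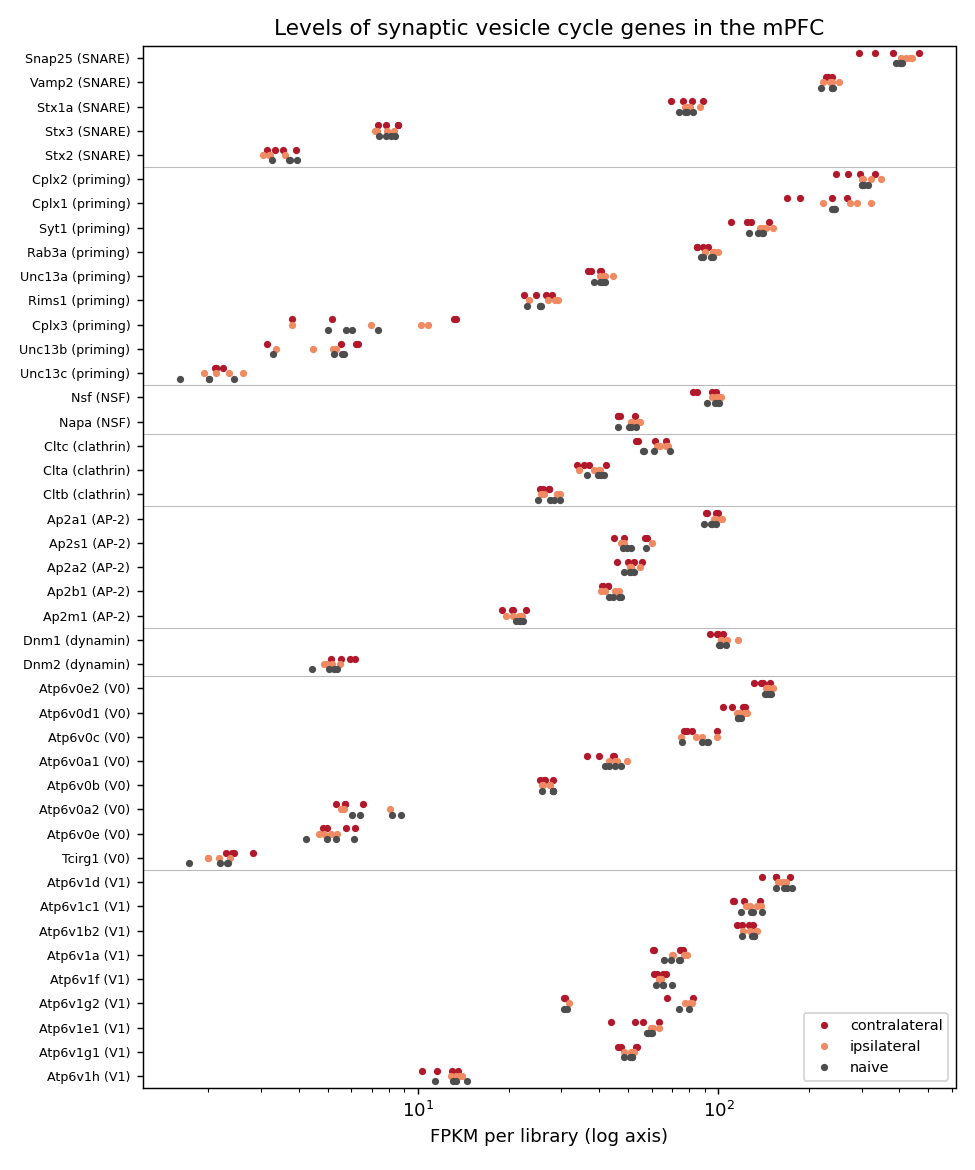
FPKM on a log axis in each of the 12 libraries for genes with a mean of at least 1 FPKM, grouped by role. Points are single libraries, coloured by group. Most genes kept a tight range over the libraries, while Cplx1, Cplx3, Unc13b, Atp6v0a2 and Atp6v1g2 were spread more widely.

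Within families, 1 paralog usually held most of the transcripts. Among complexins Cplx2 held 54.7%, Cplx1 43.9% and Cplx3, which in mouse retina serves ribbon synapses, 1.40%. Unc13a (Munc13-1) held 85.1% of the Munc13 family, and the neuronal dynamin Dnm1 held 95.1% of the sum of Dnm1 and Dnm2, the dynamin of all tissues. Apart from its G subunits, the V-ATPase showed the same concentration on forms known from brain. Atp6v0a1 held 83.4% of the V0 a subunits and Atp6v0e2 96.5% of the V0 e subunits. Atp6v1c1 held 99.8% of the V1 C subunits and Atp6v1b2 all of the V1 B subunits. The V1 G subunits were nearly even, with 51.2% for Atp6v1g2 and 48.8% for Atp6v1g1. The 2 clathrin light chains were also close, with 58.5% for Clta and 41.5% for Cltb. Near-identical stretches of paralogs could share reads, and the labels do not say how such reads were counted.

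The 6 genes under the count filter were forms known from other tissues. Atp6v0d2, Atp6v1b1 and Atp6v1g3, V-ATPase subunits of kidney or bone, had a count of 0 in every library. Atp6v0a4, the a subunit of kidney, had counts of 7, 6, 6 and 3 in contralateral, 4, 7, 8 and 1 in ipsilateral, and 1, 5, 1 and 0 in naive libraries, and its model overlaps another gene. Cplx4, a complexin of the retina, totalled 5 counts and Atp6v1e2, a subunit of testis, 8 counts over the 12 libraries. No difference could be read from counts this low. At the edge, Atp6v1c2 passed with counts between 7 and 31 per library.

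Contralateral mPFC was first set against naive mPFC, and the differences among these genes were small. None of the 46 passed at an adjusted p under 0.05 in edgeR (smallest adjusted p 1.00), against 0% of the 15808 genes tested. DESeq2 and limma voom also passed 0 of the 46. Of the 46, 14 were higher and 32 lower in contralateral libraries, with a median log2 fold change of -0.06, while 49.9% of all tested genes were lower and their median was 0.00. Without contralateral 4 the median of the 46 was -0.031. At an unadjusted p under 0.05, 1 gene was higher (1.92% of all tested genes) and 2 were lower (1.86%). Counts of 1 and 2 among 46 genes cannot be set apart from these backgrounds. Without contralateral 2, 2 genes were higher and 10 lower at that p, against 4.54% and 4.47% of all tested genes. Without contralateral 4 there were 0 of either, against 1.77% and 1.61%. In the same comparison 9 of 10 astrocyte, 8 of 10 microglia and 10 of 10 oligodendrocyte markers were higher in contralateral libraries. So were 10 of 10 striatum, 7 of 10 endothelial and 6 of 10 meningeal markers. Lower were 6 of 10 excitatory and 7 of 10 interneuron markers. None passed the threshold, and the part of these markers was not tested.

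Dnm2, the higher gene, had 64.8, 55.3, 59.5 and 63.4 CPM in contralateral libraries, against 56.0, 57.3, 47.5 and 54.2 CPM in naive libraries. The groups overlapped, since contralateral 2 lay below naive 1 and 2, and the log2 fold change was 0.18 (SE 0.07). Atp6v0a2, a V0 subunit of the Golgi and endosomes, had 57.8, 55.5, 68.0 and 59.0 CPM in contralateral libraries, against 90.4, 66.5, 62.5 and 85.1 CPM in naive libraries (log2 fold change -0.34, SE 0.15). Its naive libraries fell apart into a high and a low pair, and contralateral 3 lay above the low pair. Ap2b1, the large beta subunit of AP-2, had 427, 440, 417 and 414 CPM in contralateral libraries, against 471, 438, 482 and 452 CPM in naive libraries (log2 fold change -0.12, SE 0.05). Contralateral 2 lay above naive 2 there.

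By role, both clathrin light chains and the heavy chain, Nsf and Napa were lower in contralateral libraries, as were 9 of 10 V1 subunits and 6 of 8 V0 subunits, none past the threshold. Nsf, the ATPase that recycles SNARE proteins, had a log2 fold change of -0.12 (SE 0.06). Among V1 subunits, Atp6v1e1 had -0.13 (SE 0.09), Atp6v1d -0.10 (SE 0.06) and Atp6v1c1 -0.10 (SE 0.07). Of the V0 sector, Atp6v0a1 had -0.11 (SE 0.07) and Atp6v0e2 -0.07 (SE 0.05), while Tcirg1, a subunit known from osteoclasts, had 0.21 (SE 0.11). The priming genes were split evenly, 5 higher and 5 lower, with Rab3a, the vesicle GTPase, at -0.08 (SE 0.05). Of AP-2, the cargo-binding subunit Ap2m1 had -0.08 (SE 0.05). No gene separated the groups without overlap, where 1.04% of all tested genes were higher and 1.16% lower throughout.

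Set against the same naive libraries, the hemisphere on the side of the injury leaned the other way. In ipsilateral libraries 32 of the 46 genes were higher and 14 lower, with a median log2 fold change of 0.04, against 50.1% of all tested genes lower and a median of 0.00. Again none of the 46 passed in edgeR (smallest adjusted p 0.972, 0% of all tested genes), and none of them in DESeq2 or limma voom. None of them had an unadjusted p under 0.05 in edgeR, where 1.87% of all tested genes were higher and 2.96% lower, 4.83% in all. Both comparisons share the naive libraries, so their directions are not independent. Here 10 of 10 endothelial, 10 of 10 meningeal, 8 of 10 astrocyte and 8 of 10 microglia markers were lower in ipsilateral libraries. Higher were 10 of 10 oligodendrocyte and 6 of 10 interneuron markers, while excitatory and striatum markers were each 5 higher and 5 lower. None passed the threshold, and the part of these markers was not tested.

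The gene of smallest p was Ap2a1, an alpha subunit of AP-2, with 378, 359, 357 and 382 CPM in ipsilateral libraries, against 356, 327, 347 and 345 CPM in naive libraries (log2 fold change 0.10, SE 0.05). All ipsilateral libraries lay above all naive ones, if by a small margin. The same held for Snap25, with 3317, 3001, 3138 and 3253 CPM in ipsilateral libraries, against 2984, 2876, 3001 and 2978 CPM in naive libraries, where ipsilateral 2 and naive 3 differed by under 1 CPM. Atp6v1e1 had 346, 345, 349 and 369 CPM in ipsilateral libraries, against 329, 333, 344 and 341 CPM in naive libraries, and was the last of the 3 genes without overlap. Among all tested genes 1.95% were higher without overlap, and 2.77% lower.

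The remaining genes named for their p in that comparison all had an unadjusted p above 0.05. Rims1, the active zone scaffold, had a log2 fold change of 0.14 (SE 0.08), Unc13a 0.08 (SE 0.06) and Unc13c 0.18 (SE 0.12). Cplx1 had 0.21 (SE 0.15), Rab3a 0.08 (SE 0.05) and the alpha-SNAP gene Napa 0.09 (SE 0.06). Among retrieval genes, the clathrin heavy chain Cltc had 0.12 (SE 0.08) and Dnm1 0.08 (SE 0.06). Stx2, a syntaxin of low level (3.47 FPKM), had -0.15 (SE 0.08), and Atp6v0a2 -0.22 (SE 0.15). In all, 8 of 10 priming genes, 4 of 6 SNARE proteins and 7 of 10 V1 subunits were higher in ipsilateral libraries, none past the threshold.

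The direct comparison of the hemispheres of CCI mice, fitted without pairing the libraries of a mouse, gave the largest number of small p-values. Of the 46 genes, 10 were higher and 36 lower in contralateral than in ipsilateral libraries, with a median log2 fold change of -0.09, while 48.9% of all tested genes were lower and their median was 0.00. No gene passed in edgeR (0% of all tested genes), DESeq2 or limma voom. At an unadjusted p under 0.05 in edgeR, 10 genes were lower, against 3.78% of all tested genes, and 0 were higher, against 4.58% (8.36% in either direction). Each of the 10 had an adjusted p of 0.592. Their number depended on single libraries, and the share of all tested genes lower at that p moved too. It was 20 genes without contralateral 2 (8.73% of all tested genes) and 5 without contralateral 1 (2.56%). It was 4 without contralateral 3 (3%) and 2 without contralateral 4 (1.6%). Without ipsilateral 1, 2, 3 and 4 it was 3 (2.21%), 8 (3.54%), 8 (2.85%) and 2 (1.81%). With both hemispheres of a mouse left out, it was 4 without mouse 1 (1.99%) and 20 without mouse 2 (8.27%). It was 4 without mouse 3 (2.45%) and 0 without mouse 4 (1.16%). The median was -0.050 without mouse 4. Among them were Rab3a, Napa, Cplx1, Nsf, Unc13a, Atp6v0a1, Syt1, Dnm1 and Atp6v1e1, which span docking, fusion, SNARE recycling, retrieval and acid pumping.

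**Figure D2:**
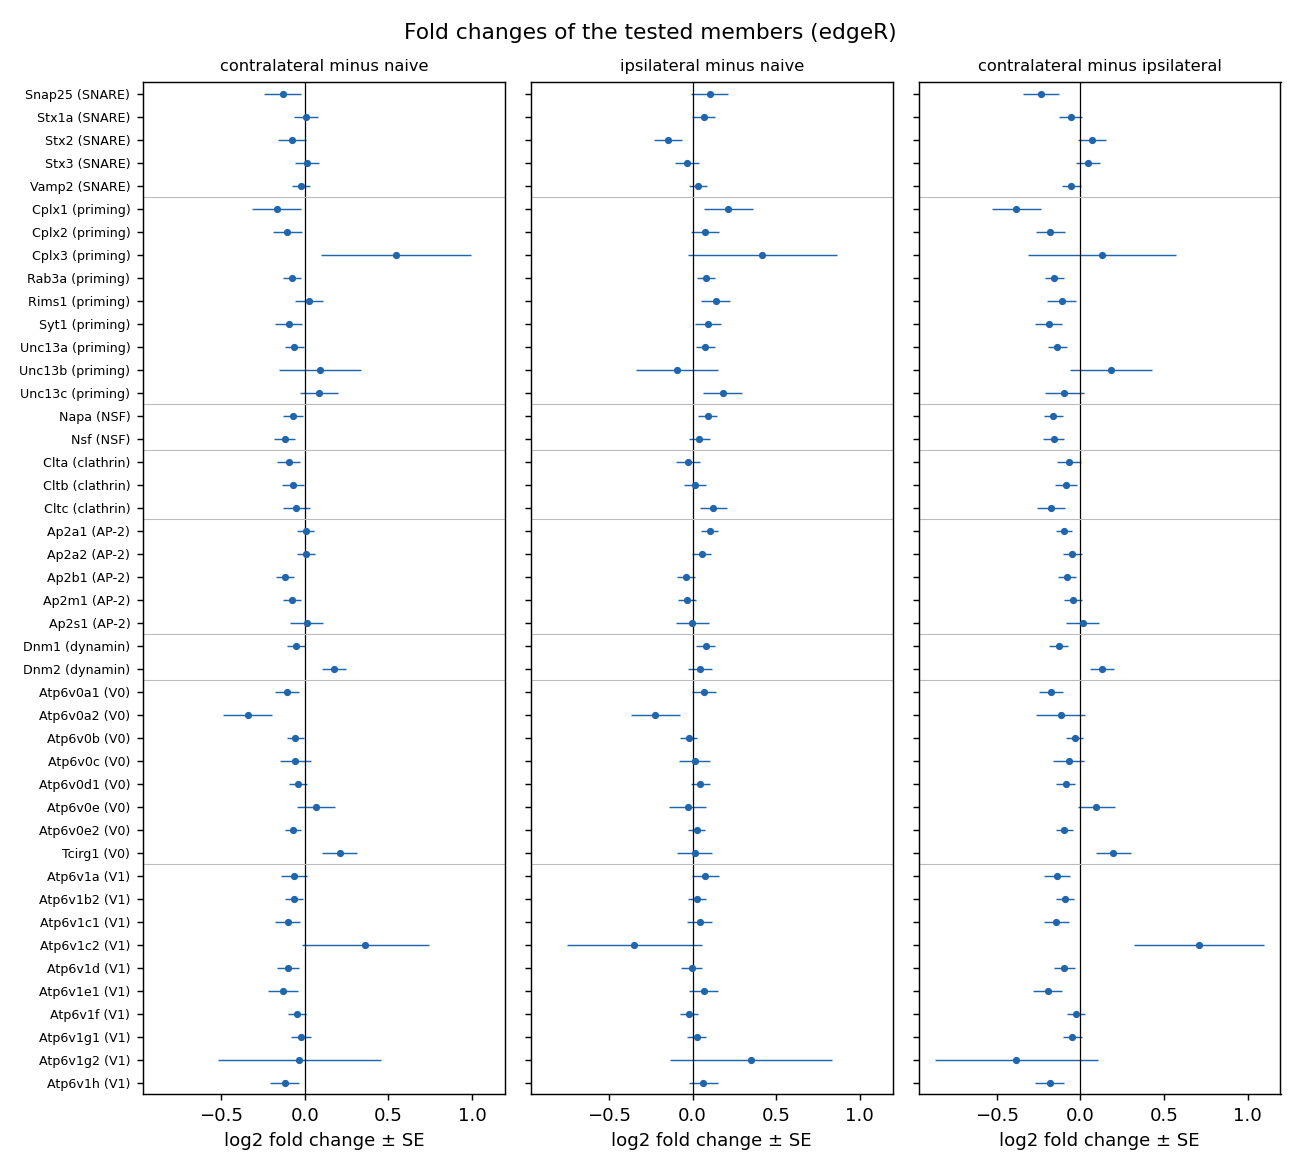
Log2 fold changes (points) with their SE (bars) of tested genes in 3 comparisons, from edgeR on 4 libraries per group, with genes in rows by role. In the contralateral minus ipsilateral panel most points lie below 0; the widest bars belong to Cplx3, Atp6v1c2 and Atp6v1g2.

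Rab3a (chromosome 8, 70754679 to 70758677) had 367, 392, 358 and 356 CPM in contralateral libraries, against 417, 382, 411 and 430 CPM in ipsilateral libraries (log2 fold change -0.16, SE 0.05). The groups would have stood apart but for mouse 2, whose order was reversed. Napa (chromosome 7, 16098458 to 16117975) had 234, 241, 271 and 240.5 CPM in contralateral libraries, against 287, 264, 269 and 284 CPM in ipsilateral libraries (-0.16, SE 0.06). Here contralateral 3 lay among the ipsilateral values. Nsf (chromosome 11, 103821782 to 103954056) had 969, 1024, 879 and 846 CPM in contralateral libraries, against 1057, 1022, 994 and 1080 CPM in ipsilateral libraries (-0.16, SE 0.06), with contralateral 2 again among the ipsilateral values.

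Cplx1 (ENSMUSG00000033615, chromosome 5, 108518554 to 108550024), a complexin that both clamps SNARE complexes and helps them fuse, differed most among the 10. It had 405, 661, 584 and 454 CPM in contralateral libraries, 803, 544, 678 and 720 CPM in ipsilateral libraries and 589.8, 592, 587 and 597 CPM in naive libraries. The contralateral minus ipsilateral log2 fold change was -0.38 (SE 0.15). The naive libraries lay close together, below 3 of the 4 ipsilateral libraries and above 3 of the 4 contralateral ones. Cplx2 had 1183, 1639, 1458 and 1316 CPM in contralateral libraries, against 1741, 1484, 1595 and 1516 CPM in ipsilateral libraries (-0.18, SE 0.09), and was likewise reversed in mouse 2.

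Syt1, the calcium sensor of fast release, had 1984, 2349, 1967 and 1730 CPM in contralateral libraries, against 2210, 2282, 2225 and 2441 CPM in ipsilateral libraries (-0.19, SE 0.08). Snap25 had 2393, 3441, 2812 and 2153 CPM in contralateral libraries, against the ipsilateral values given above (-0.23, SE 0.11; adjusted p = 0.596). In both genes contralateral 2 exceeded at least 3 of the 4 ipsilateral libraries, and the other contralateral libraries lay below every ipsilateral one. Unc13a, the main priming factor, had 544, 619, 607 and 565 CPM in contralateral libraries, against 684, 612, 639 and 636 CPM in ipsilateral libraries (-0.14, SE 0.06). Contralateral 2 exceeded ipsilateral 2 in this gene.

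**Figure D3:**
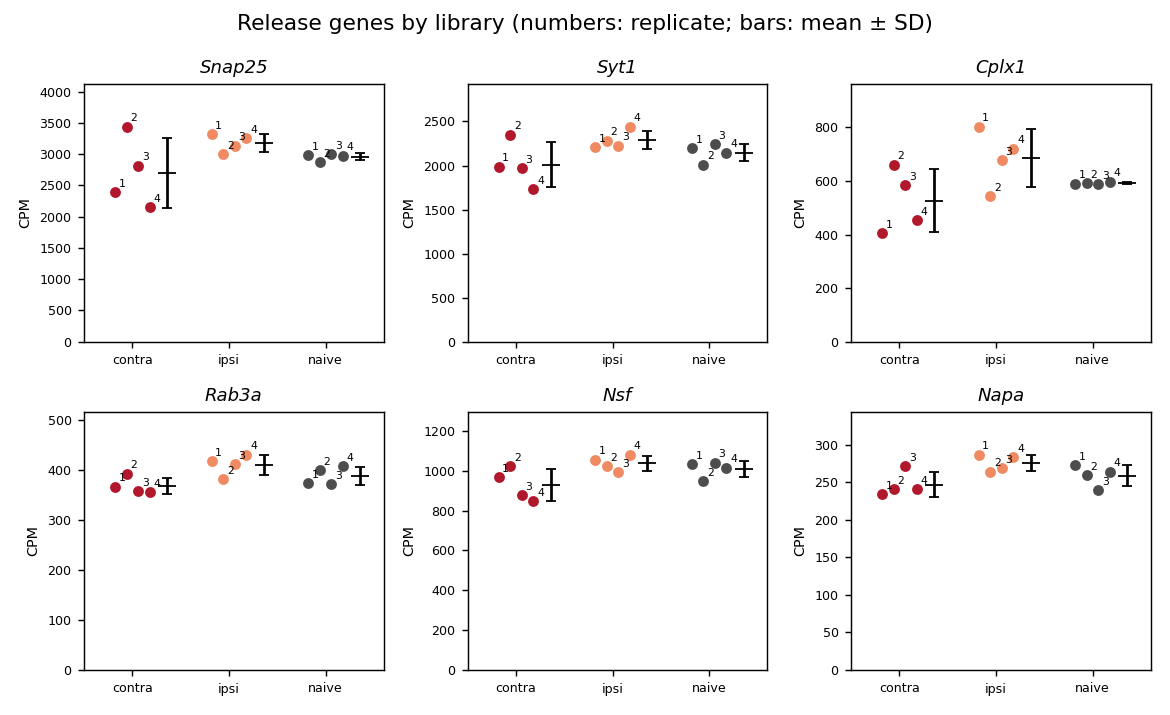
CPM in each library for Snap25, Syt1, Cplx1, Rab3a, Nsf and Napa, with axes from 0. Points are libraries labelled by replicate number, and bars give the mean ± SD of each group (n = 4). Contralateral libraries 1 and 4 lie below all ipsilateral libraries in all 6 panels, whereas contralateral 2 lies among or above them in 5.

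Retrieval and acidification were represented among the 10 by Dnm1, Atp6v0a1 and Atp6v1e1. Dnm1 had 1309, 1401, 1329 and 1251 CPM in contralateral libraries, against 1398, 1433, 1380 and 1582 CPM in ipsilateral libraries (-0.13, SE 0.06). Atp6v0a1 had 425, 434, 353 and 386 CPM in contralateral libraries, against 451, 440.0, 423 and 489 CPM in ipsilateral libraries (-0.17, SE 0.07). Both were lower on the right in every mouse, by little in mouse 2. Atp6v1e1 had 246, 364, 320 and 301 CPM in contralateral libraries, against the ipsilateral values given above (-0.20, SE 0.09), and was higher on the right in mouse 2. Cltc, just past the p of the 10, had 658, 737, 580.1 and 586 CPM in contralateral libraries, against 713, 742, 690 and 746 CPM in ipsilateral libraries (-0.17, SE 0.08; adjusted p = 0.600).

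By role, lower values in contralateral libraries were found for 4 of 6 SNARE proteins, 7 of 10 priming genes, both recycling genes, all 3 clathrin chains, 4 of 5 AP-2 subunits, 1 of 2 dynamins, 6 of 8 V0 and 9 of 10 V1 subunits. Vamp2 had -0.05 (SE 0.05), Stx1a -0.06 (SE 0.07), Rims1 -0.11 (SE 0.08), Ap2m1 -0.04 (SE 0.05) and Atp6v1b2 -0.09 (SE 0.05). The clathrin median was -0.09, the V1 median -0.12 and the V0 median -0.08. Among the 10 genes on the other side were Tcirg1 (0.20, SE 0.10), Dnm2 (0.13, SE 0.07), Stx2 (0.07, SE 0.08), Stx3, Ap2s1, Atp6v0e, Cplx3, Unc13b and Atp6v1c2. No gene kept the groups fully apart, where 1.33% of all tested genes did so downwards and 1.61% upwards.

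The promoters of Napa, Cplx1, Nsf and Unc13a are shown because these were the genes of smallest p between the hemispheres for which RefSeq gave exactly 1 window. Each window runs from 250 bases before the start of the transcript to 50 bases after it (GRCm38.p6), 5′ to 3′ on the strand of the gene. Capitals mark CACGTG (the E-box), TGACGTCA (the cAMP response element) and GGGCGG or its complement CCGCCC (the GC box). The windows are Napa on chr7:16098330-16098629 (+), Cplx1 on chr5:108549978-108550277 (-), Nsf on chr11:103954007-103954306 (-) and Unc13a on chr8:71671708-71672007 (-).
Napa: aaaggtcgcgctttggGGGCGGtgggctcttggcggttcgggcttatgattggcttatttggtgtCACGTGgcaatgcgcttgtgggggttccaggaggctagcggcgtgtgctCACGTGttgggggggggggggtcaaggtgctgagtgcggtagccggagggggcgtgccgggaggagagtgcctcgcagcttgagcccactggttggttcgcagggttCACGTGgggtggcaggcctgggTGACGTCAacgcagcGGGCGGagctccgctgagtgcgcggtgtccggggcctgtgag
Cplx1: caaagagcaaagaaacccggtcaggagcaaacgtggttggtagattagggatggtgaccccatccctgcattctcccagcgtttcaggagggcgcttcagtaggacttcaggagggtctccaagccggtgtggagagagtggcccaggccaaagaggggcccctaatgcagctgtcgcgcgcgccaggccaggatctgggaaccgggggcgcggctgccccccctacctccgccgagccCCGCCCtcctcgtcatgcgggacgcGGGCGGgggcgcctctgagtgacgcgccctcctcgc
Nsf: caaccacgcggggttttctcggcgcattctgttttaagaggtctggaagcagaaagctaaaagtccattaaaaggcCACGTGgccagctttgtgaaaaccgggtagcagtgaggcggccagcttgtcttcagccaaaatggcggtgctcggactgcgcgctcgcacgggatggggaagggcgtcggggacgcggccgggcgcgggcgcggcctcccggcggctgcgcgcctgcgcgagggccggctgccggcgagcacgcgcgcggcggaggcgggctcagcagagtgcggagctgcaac
Unc13a: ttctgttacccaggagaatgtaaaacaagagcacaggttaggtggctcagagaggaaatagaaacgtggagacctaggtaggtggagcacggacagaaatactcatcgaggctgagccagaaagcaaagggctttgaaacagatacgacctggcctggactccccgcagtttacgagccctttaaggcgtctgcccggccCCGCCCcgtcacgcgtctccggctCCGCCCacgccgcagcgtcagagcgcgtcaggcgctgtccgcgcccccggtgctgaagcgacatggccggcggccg

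Napa held 3 E-boxes, 1 cAMP response element and 2 GC boxes, Nsf 1 E-box, and Cplx1 and Unc13a 2 GC boxes each. Windows were matched for 41 of the 52 genes, 50 windows in all, and both strands were searched; no 2 different motifs overlapped there. GGGCGG stood in 34 of the 50 windows (68.0%), against 35.7% of all 32851 windows of the same length. CACGTG stood in 9 (18%), among them Atp6v1a, Atp6v0b, Atp6v0d1 and Atp6v0e of the proton pump, against 7.15% of all windows, and TGACGTCA in 3 (6.0%), those of Napa, Ap2b1 and Cltb, against 1.79%. The counts describe letters in these windows only.

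Within the mice, the side difference rested on 3 of the 4. On the right, 33 of the 46 genes were lower in mouse 1, 19 in mouse 2, 33 in mouse 3 and 36 in mouse 4, while in these mice 49.8, 49.4, 51.3 and 48.9% of all tested genes were lower. The median right minus left difference in log2 CPM was -0.08 in mouse 1, 0.03 in mouse 2, -0.10 in mouse 3 and -0.21 in mouse 4. Cplx1 differed by -0.99, 0.28, -0.21 and -0.67 in mice 1 to 4, Snap25 by -0.47, 0.20, -0.16 and -0.60, and Syt1 by -0.16, 0.04, -0.18 and -0.50. Mouse 2 thus had the opposite sign in each of these genes. Lower on the right in all 4 mice were 4 genes, Cltc, Dnm1, Atp6v1c1 and Atp6v0a1, against 6.33% of all tested genes; higher in all 4 were 0 genes, against 6.41%. In mice 1, 3 and 4 together, 21 genes were lower (19.1% of all tested genes), and 17 of these were higher in mouse 2 (12.8%).

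**Figure D4:**
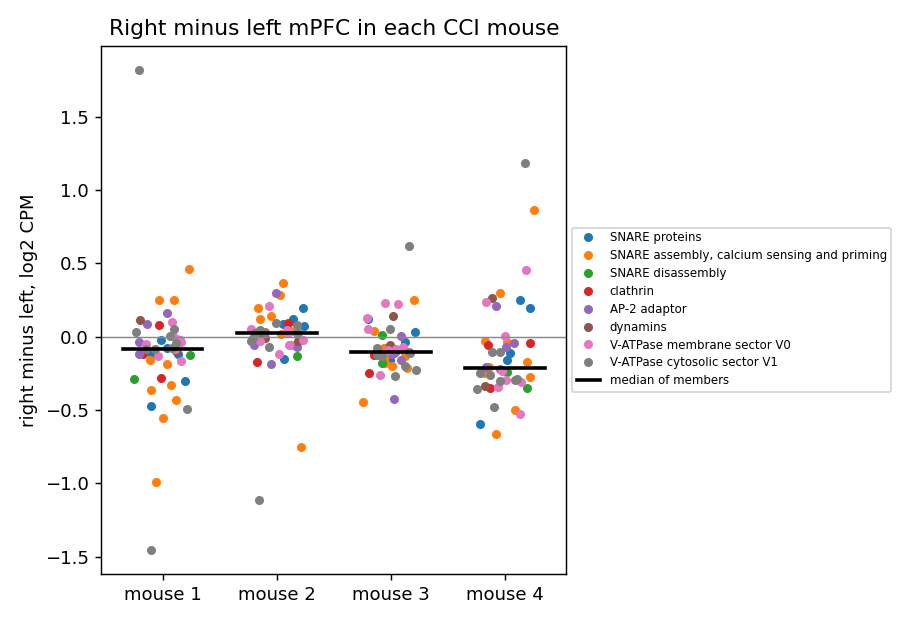
Right minus left difference in log2 CPM of the 46 tested genes in each CCI mouse, coloured by role. Points are genes and black bars medians. The medians are -0.08, 0.03, -0.10 and -0.21 in mice 1 to 4, and only mouse 2 has a median above 0.

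Without both libraries of mouse 2, edgeR passed Cplx1 (log2 fold change -0.60, SE 0.11; adjusted p = 0.0312) and Snap25 (-0.40, SE 0.08; adjusted p = 0.0350) between contralateral and ipsilateral libraries, 2 of the 46 genes, beside 0.754% of all tested genes lower and 1.04% higher. With contralateral library 2 alone left out, Snap25 passed (-0.37, SE 0.08; adjusted p = 0.0438), and Cplx1 had an adjusted p of 0.0905; there 0.538% of all tested genes were lower past the threshold and 0.457% higher. At an unadjusted p under 0.05, 20 of the 46 genes were lower and 2 higher in each of these fits, while of all tested genes 8.27% were lower and 9.33% higher without mouse 2, and 8.73% lower and 9.49% higher without contralateral 2. Both differences were smaller without mouse 1 and without mouse 4. Cplx1 had -0.19 without mouse 1 (edgeR adjusted p = 0.821) and -0.29 without mouse 4. Snap25 had -0.16 without mouse 1 and -0.13 without mouse 4 (edgeR adjusted p = 1.00). Mouse 2 was singled out after its values were seen, so these values describe how the result depends on it.

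Other markers moved with the side as well, and their part in the result was not tested. Higher in contralateral than in ipsilateral libraries were 10 of 10 astrocyte, 10 of 10 microglia, 10 of 10 oligodendrocyte, 10 of 10 endothelial, 10 of 10 meningeal and 9 of 10 striatum markers, while 8 of 10 excitatory and 7 of 10 interneuron markers were lower; none passed the threshold. The summed microglia markers lay between 413 and 582 CPM in contralateral and between 415 and 433 CPM in ipsilateral libraries, and the meningeal markers between 142 and 268 CPM in contralateral and between 119 and 186 CPM in ipsilateral libraries. Contralateral 1 stood out with 563 CPM of striatum markers, against 268 to 313 CPM in the other contralateral and 255 to 315 CPM in ipsilateral libraries. Contralateral 2, in which the vesicle cycle genes were highest among the contralateral libraries, had the lowest sums there of microglia (413 CPM), meningeal (142 CPM), endothelial (280.3 CPM) and astrocyte markers (2236 CPM) but the highest of oligodendrocyte markers (5472 CPM). Its interneuron sum (1008 CPM) was the highest there. Its excitatory sum (5581 CPM) lay above that of contralateral 1 (5270 CPM) and below those of contralateral 3 (6672 CPM) and 4 (6222 CPM).

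When the hemispheres of each CCI mouse were summed and set against naive mice, the counts by direction were close to even. Of the 46 genes 25 were higher and 21 lower in CCI mice, with a median log2 fold change of 0.00, against 49.7% of all 16179 tested genes lower. None passed in edgeR (smallest adjusted p 1.00; 0% of all tested genes), DESeq2 or limma voom, and none had an unadjusted p under 0.05 (1.8% of all tested genes higher, 2.4% lower, 4.2% in all). No gene kept CCI and naive mice apart without overlap, as 1.22% of all tested genes did upwards and 1.5% downwards. Atp6v0a2 came nearest with -0.28 (SE 0.13), then Dnm2 with 0.11 (SE 0.07), Ap2b1 with -0.08 (SE 0.04) and Rims1 with 0.08 (SE 0.05). Stx2 had -0.11 (SE 0.07), Ap2m1 -0.05 (SE 0.04), Clta -0.06 (SE 0.06) and Atp6v1d -0.05 (SE 0.05), while Ap2a1 had 0.05 (SE 0.04), Unc13c 0.13 (SE 0.11), Tcirg1 0.11 (SE 0.10) and Cplx3 0.48 (SE 0.39). Cplx1 came to 600, 596, 631 and 587 CPM in the CCI mice, against 589.6, 593, 587 and 597 CPM in naive mice, a log2 fold change of 0.03 (SE 0.04). The sums of all 4 CCI mice lay near the naive values.

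Spread between libraries was itself uneven. The median SD of log2 CPM over the 46 genes was 0.126 in contralateral, 0.0781 in ipsilateral and 0.0727 in naive libraries, against 0.165, 0.128 and 0.125 over all tested genes. The SD was higher in contralateral than in naive libraries for 34 of the 46 genes (63.6% of all tested genes) and higher in ipsilateral than in naive libraries for 28 (50% of all tested genes). The mean centred log2 CPM of the 46 genes was -0.04, 0.03, -0.05 and -0.08 in contralateral libraries, 0.05, 0.04, 0.02 and 0.04 in ipsilateral libraries and 0.00, 0.00, -0.02 and 0.02 in naive libraries. Contralateral 2 was the only contralateral library within the ipsilateral range.

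A few genes split the libraries into 2 levels, and both levels of Atp6v1g2 and Unc13b were found in every group. The rule for 2 levels asked for a widest ratio between neighbouring sorted CPM values of 1.2 or more, with at least 2 libraries on each side. It was set after the values were seen and applied to genes with a mean of at least 10 CPM. All of the 46 tested genes but Atp6v1c2 reached that mean. Of these, 5 were split, against 7.1% of the 10178 genes examined. A count of 5 cannot be set apart from this share. Atp6v1g2, the neuronal G subunit of V1 (chromosome 17, 35233660 to 35238767, GRCm38/mm10), had 190.3, 521, 192 and 422 CPM in contralateral, 521, 489, 203 and 516 CPM in ipsilateral and 192, 198, 466 and 502 CPM in naive libraries. It was low in 5 libraries and high in 7, with a gap of 2.08 times between the levels, and the hemispheres of mouse 1 were on different levels. Its share of V1 G subunit FPKM ran from 36.8 to 62.4% over the libraries, Atp6v1g1 holding the rest.

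**Figure D5:**
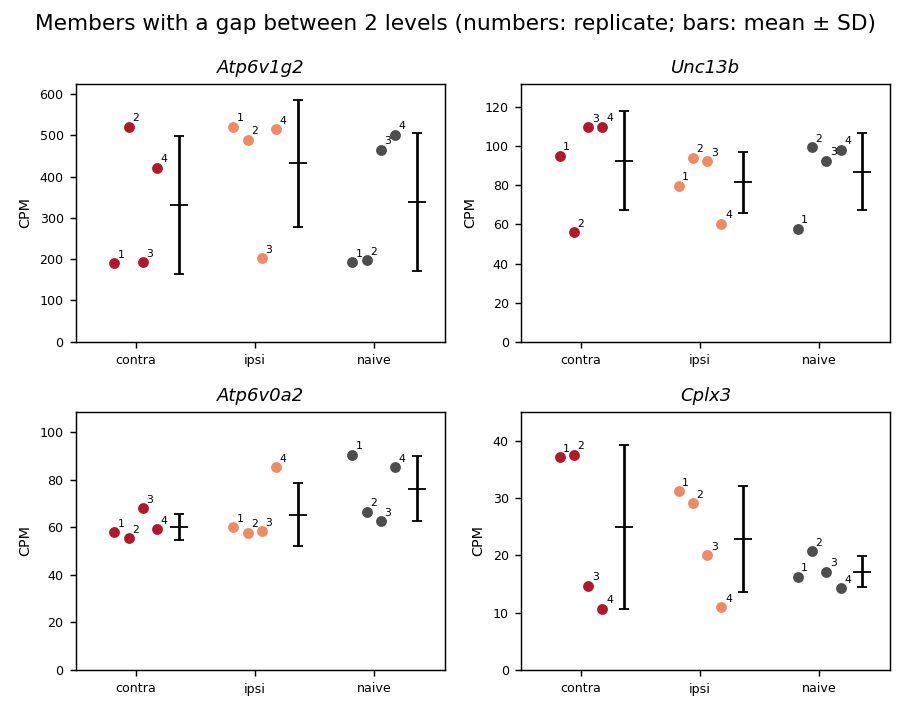
CPM in each library for Atp6v1g2, Unc13b, Atp6v0a2 and Cplx3, with axes from 0. Points are libraries labelled by replicate number, and bars give the mean ± SD of each group (n = 4). Low and high libraries of Atp6v1g2 are found in all 3 groups, at 190.3 to 203 CPM and at 422 to 521 CPM.

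Unc13b (Munc13-2) was low in contralateral 2 (55.9 CPM), ipsilateral 4 (60.4 CPM) and naive 1 (57.8 CPM), and between 79.8 and 110.1 CPM in the other 9 libraries. Cplx3 had 37.1, 37.5, 14.7 and 10.7 CPM in contralateral, 31.1, 29.1, 19.96 and 11.0 CPM in ipsilateral and 16.2, 20.7, 17.2 and 14.2 CPM in naive libraries. Both hemispheres of mice 1 and 2 were on its upper level, and no naive library was. Atp6v0a2, given above, was high in ipsilateral 4 and naive 1 and 4, and in no contralateral library. Among the genes shown, Atp6v0a2 had the smallest ratio inside the rule (1.25), and outside it Cplx1 (1.198) and Snap25 (1.18) came next. The gap was 1.40 times for Cplx3 and 1.32 times for Unc13b. Values inside 1 level ranged more widely than the gap, 1.94 times in the lower level of Cplx3 and 1.38 times in the upper level of Unc13b.

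By the coordinates of the deposited table, Atp6v1g2 overlaps Nfkbil1 by 2133 bases, a gene at 10.1 to 12.6 CPM. Of the 52 genes, 14 overlap another gene model with counts, Unc13a among them (Colgalt1, 493 bases, 64.5 to 79.7 CPM) and Dnm1 (Ciz1, 1012 bases, 53.3 to 66.0 CPM). The labels do not say whether counting used strand, so reads in such overlaps cannot be assigned with certainty.

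Other presynaptic genes leaned the same way between the hemispheres. Of 60 listed genes that the term does not hold, 59 were tested. In contralateral against ipsilateral libraries 14 were higher and 45 lower, while 48.9% of all tested genes were lower. At an unadjusted p under 0.05 in edgeR, 7 were lower and 0 higher, against 3.78% and 4.58% of all tested genes. None passed. Syn1, a phosphoprotein that tethers vesicles, averaged 872 ± 33.7 CPM in contralateral and 971 ± 57.9 CPM in ipsilateral libraries (SD, n = 4 each; log2 fold change -0.15, SE 0.05). The vesicle protein gene Syngr1 had -0.16 (SE 0.06) and the Rab3 effector gene Rph3a -0.23 (SE 0.09). Against naive libraries, 17 were higher and 42 lower in contralateral libraries (49.9% of all tested genes lower). Syp (-0.10, SE 0.05), Sh3gl1 (0.14, SE 0.08) and Syt13 (-0.10, SE 0.06) had the smallest p there. In ipsilateral libraries 44 were higher and 15 lower (50.1% of all tested genes lower). Doc2b (-0.62, SE 0.22), Rimbp2 (0.12, SE 0.06) and Rph3a (0.19, SE 0.09) had the smallest p there. In summed CCI mice against naive mice 39 were higher and 20 lower (49.7% of all tested genes lower). At the smallest p were Doc2b (-0.37, SE 0.09), Rimbp2 (0.11, SE 0.05) and Hspa8 (-0.10, SE 0.06). Of the 24 left-out Slc and Cacna genes of the term, 15 were tested; 6 were higher and 9 lower in contralateral than in ipsilateral libraries, and none passed in any comparison.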

How the data were processed

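Messenger RNA libraries were sequenced from 12 mPFC samples, 4 per group. The authors deposited raw counts per gene and library beside FPKM values scaled by gene length and library total, per the file headers, and a text annotation with KEGG terms. HISAT2 2.0.4 and the build GRCm38/mm10 are listed, with no role given, in the submitters' processing notes; the counting program is not given in the sources used here. The genes and lists were chosen with earlier results of these data known.

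Deposited counts of all genes were fitted with edgeR 4.0.16 in R 4.3.3 (TMM factors, filterByExpr by group, robust quasi-likelihood, Benjamini-Hochberg over all tested genes, two-sided). The 12 libraries were fitted in 3 groups (15808 genes tested). CCI mice, with left and right counts of each number summed, were fitted against naive mice (16179 genes tested). A gene passed at an adjusted p under 0.05. The SE of a fold change was computed as its size over the root of F. CPM carry TMM factors; log2 CPM has a prior count of 2. Deposited FPKM served only to compare genes. No per-sample column was left unmatched. Alternatives were limma voom (limma 3.58.1), DESeq2 1.42.0, other scaling factors and filters, a block for the number in the library code, 2-group fits, leaving out libraries or mice, and, chosen after seeing the data, leaving out the genes with 2 separated levels and counting unadjusted p-values with libraries left out. The fits were tested on simulated data.

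Same-numbered left and right libraries deviated from their group means with correlations of 0.0121, -0.137, 0.0379 and 0.0601, so pairing rests on the library codes alone. Of the 52 genes, 43 have the same coordinates in GENCODE M21. Genes named per comparison are those past the threshold or else the 12 of smallest p, with a fixed set of release, retrieval and pump genes, the highest and lowest FPKM of each role, and the 3 other presynaptic genes of smallest p. Some genes that this rule names are not reported here.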

Additional observations from a re-analysis of the deposited data

Results flagged for a closer look

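In 9 of 141 groups of 4 libraries, 1 library stood apart from the other 3 in CPM by Dixon's test; chance gives about 1 in 20. Among contralateral libraries this was Napa in contralateral 3, with 271 CPM against 234 to 241 CPM in the others.

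Among ipsilateral libraries, Ap2s1, the small subunit of AP-2, was high in ipsilateral 3 (113 CPM, others 88.6 to 92.0 CPM) and Atp6v1g2 low in the same library (203 CPM, others 489 to 521 CPM). Atp6v1e1 (369 CPM, others 345 to 349 CPM) and Atp6v0a2 (85.2 CPM, others 57.7 to 59.9 CPM) were high in ipsilateral 4.

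Among naive libraries, naive 1 was low in 3 genes of the release step: Rims1 (220.2 CPM, others 244 to 246 CPM), Unc13b (57.8 CPM, others 92.6 to 99.5 CPM) and Vamp2 (1079 CPM, others 1180.4 to 1192 CPM). Atp6v0b, a proteolipid subunit of V0, was low in naive 3 (129 CPM, others 139.6 to 140.1 CPM).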

How the results depend on the processing

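No fold change of a gene named for its p changed its sign under any alternative run, and the count of vesicle cycle genes past the threshold stayed 0 in all comparisons under other scalings, filters, tools, 2-group fits, the block and the omission of genes with 2 levels. Leaving out libraries moved it only between contralateral and ipsilateral libraries, from 0 to 2 genes (1 without contralateral 2, 2 without both libraries of mouse 2), and moved the median there between -0.13 (without mouse 2) and -0.050 (without mouse 4). Against naive libraries, such omissions gave medians from -0.075 (without contralateral 2) to -0.031 (without contralateral 4) for contralateral, from 0.036 (without ipsilateral 4) to 0.062 (without ipsilateral 3) for ipsilateral libraries, and from -0.018 to 0.0088 for CCI mice. Naive and CCI libraries of the same number come from different mice, so the block pairs no animals in comparisons against naive. With the replicate number as a block, 0 genes passed in each comparison. The unadjusted p in edgeR with the block was under 0.05 for 2, 0, 7 and 1 (contralateral and ipsilateral against naive, contralateral against ipsilateral, CCI mice against naive mice). The share of all tested genes at that p was not counted with the block, so these numbers cannot be set against a background. Medians under the other alternatives ran from -0.06 to -0.05, 0.03 to 0.05, -0.10 to -0.07 and -0.0037 to 0.0076 in that order, and the counts of genes lower from 30 to 34, 11 to 17, 34 to 37 and 20 to 26. Over all tested genes, against 0 in the report, the numbers past the threshold were 3, 9, 0 and 28 with DESeq2, 1, 1, 0 and 1 with the block, 1 and 7 in 2-group fits against naive, 4 (library totals) and 5 (no filter) for CCI mice, and 159 and 286 between the hemispheres without contralateral 2 and without mouse 2. Low counts limit what can be said of Atp6v1c2, Tcirg1 and Atp6v0e.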
